A study of Mus musculus with 6 samples.

Results

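Transcripts of 8 genes of insulin and insulin-like growth factor (IGF) signalling were followed in dorsal root ganglia, which hold the cell bodies of sensory neurons next to the spinal cord. The genes were chosen by name: the ligand gene Igf1, the receptor genes Insr, Igf1r and Igf2r, the adaptor genes Irs1, Irs2 and Irs4, and the kinase gene Akt1. They are 8 of the 54242 gene symbols in the deposited table. The fed group had food ad libitum, and the fasted group followed 10 days of intermittent fasting, with 3 libraries each. All mice were male C57bl/6 aged 8-10 weeks and carried no stated mutation or transgene, and the ganglia came from the levels L4-6. The labels put the killing of the animals after 24 hours without saying what the 24 hours follow, so the last meal before sampling is unknown. Nor is it stated if each library is from a single animal or from pooled ones, and the p-values therefore cover the variation among these libraries alone, some of it perhaps technical. Ganglia were dissociated with enzymes and spun through 15% BSA to enrich neurons.

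Insulin and IGF-1 bind the receptor tyrosine kinases encoded by Insr and Igf1r, which phosphorylate the insulin receptor substrate (IRS) adaptors. The adaptors recruit phosphoinositide 3-kinase, whose lipid product brings Akt kinases to the membrane, where they are activated. Sensory neurons carry both receptors, and insulin and IGF-1 are known as survival and neurite growth factors for them. The product of Igf2r is a lysosomal sorting receptor that takes up and clears IGF-2 and does not signal through IRS adaptors.

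Of the 8 genes, 7 were abundant enough to test, and none of these passed the adjusted threshold between fed and fasted libraries (limma). Irs4 was too low to test, and Igf1r alone had fasted values that all lay above the fed ones, by a narrow margin. Over all 15097 tested genes, 17.8% showed no overlap between the groups, 12.7% with higher values in fasted libraries. The abundances were ordered Akt1, Irs2, Igf1r, Insr, Igf2r, Igf1, Irs1 and Irs4 by their means over the 6 libraries. Values are TPM, transcript abundances scaled to a fixed total per library, which are scaled for transcript length and can therefore be compared between genes. Akt1 averaged 179.7 TPM, Irs2 23.7, Igf1r 9.31, Insr 7.41, Igf2r 7.13, Igf1 4.78 and Irs1 2.41 TPM. Insr and Igf2r overlapped in their ranges over the 6 libraries, and no other neighbours in this order did. Irs4 was listed at 0 in 5 libraries. Sequencing depth cannot be read from TPM, so it is unknown here and counting intervals are not given.

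Defining markers of neurons were abundant, with a summed level of 12141 to 13745 TPM for the 8 neuronal genes looked at. All 8 had higher means in fasted libraries, with overlapping sums (12141 to 13422 TPM in fed, 13253 to 13745 TPM in fasted). The 4 erythrocyte markers were also all higher, with sums of 1279 to 1559 TPM in fed and 1710 to 3265 TPM in fasted libraries, without overlap. The 6 Schwann cell markers summed to 7439 to 8561 TPM and the 6 satellite glial markers to 5413 to 6122 TPM, so the preparations held glial RNA as well. The 10 macrophage markers were all lower in fasted libraries, with sums of 85.3 to 105 TPM in fed and 57.7 to 72.5 TPM in fasted libraries. The 6 endothelial markers were also all lower (73.6 to 88.7 against 62.5 to 74.8 TPM). Of 6 fibroblast markers, 4 were higher and 2 lower, with overlapping sums (706 to 776 against 721 to 788 TPM). Sums overlapped as well for 4 pericyte and smooth muscle markers (160 to 161 against 130 to 168 TPM). The same held for 4 adipocyte markers (22.1 to 39.7 against 15.9 to 40.9 TPM). Fed replicate 2 stood apart in skeletal muscle RNA: the 6 muscle markers summed to 2490.0 TPM there and to 47.5 to 250.4 TPM in the other 5 libraries. No marker looked at was at 0 in any library.

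The sequences below show where the transcripts of Insr and Igf1 differ, because the table lists each transcript separately and the isoforms have different known properties. Insr makes a receptor without (form A) or with (form B) the short segment encoded by exon 11, and form A binds IGF-2 more tightly. The exon of 36 bases lies at chr8:3181702-3181737 (GRCm38, minus strand), inside an intron of the full-length transcript Insr-201. Of the 5 annotated Insr transcripts in the table, only the fragment Insr-203 holds it. Each line gives the spliced sequence 5′ to 3′ with 15 bases of each neighbouring exon in lower case, and the capitals mark the exon.
Insr-201: ggtttttgtccccaggccatcccgaaagcg
Insr-203: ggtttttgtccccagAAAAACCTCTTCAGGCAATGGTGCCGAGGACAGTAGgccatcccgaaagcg

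Igf1 transcripts differ at both ends of the coding sequence. Class 1 transcripts begin translation in the first exon and class 2 transcripts in the second, which gives different signal peptides ahead of the same hormone. The coding part of the class 1 leader spans chr10:87859350-87859412 and that of the class 2 leader chr10:87861371-87861385 (GRCm38, plus strand). Capitals mark the leader's coding part, and the first 15 bases of the shared next exon follow in lower case.
Igf1-202: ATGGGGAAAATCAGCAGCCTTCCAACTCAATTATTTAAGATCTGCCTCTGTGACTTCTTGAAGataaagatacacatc
Igf1-205: ATGACCGCACCTGCAataaagatacacatc

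Near the other end, an exon of 52 bases at chr10:87915298-87915349 is spliced in or left out and alters the carboxy-terminal E peptide, which is cut off the mature hormone. Its inclusion shifts the reading frame, and the annotated coding length is 477 bases in Igf1-203 and 459 bases in Igf1-202. The capitals mark this exon.
Igf1-202: cccaagactcagaaggaagtacatttgaag
Igf1-203: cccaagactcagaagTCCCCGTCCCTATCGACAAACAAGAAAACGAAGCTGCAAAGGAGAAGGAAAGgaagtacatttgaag

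Igf1 (ENSMUSG00000020053, chromosome 10, 87858265 to 87937042, GRCm38, plus strand), the gene of the ligand, measured 4.10, 5.65 and 3.87 TPM in replicates 1, 2 and 3 of the fed group, against 4.60, 5.58 and 4.87 TPM in those of the fasted group. The fasted values lay inside the fed range, whose highest value came from fed replicate 2, the library rich in muscle RNA. Fasted replicate 2 was nearly as high, with a muscle marker sum of 176.8 TPM against 2490.0 TPM in fed replicate 2. Mean Igf1 was 4.54 ± 0.97 TPM with food ad libitum and 5.02 ± 0.51 TPM after fasting (SD, n = 3 per group). On log2(TPM + 1), fasted minus fed came to 0.13 (standard error 0.14, limma, adjusted p = 0.72 over all genes tested). Its 95% interval ran from -0.19 to 0.45, that is from 0.878-fold to 1.37-fold of TPM + 1. This scale understates changes of TPM itself at such low levels. Without fed replicate 2 the log2 fold change was 0.27 (limma, unadjusted p = 0.043, adjusted p = 0.68), the largest move of any of the 8 genes when 1 library was left out. That omission removes a high value from the fed group alone, although replicate 2 was the highest in both groups. With all libraries and the replicate number added to the model, the unadjusted p was 0.23 (limma, adjusted p = 0.60). Macrophages are a known source of IGF-1, and the macrophage markers were lower in fasted libraries (given above). The part of macrophages or of any other cell type in the Igf1 values was not tested. In bulk RNA, fewer cells of a type and less RNA per cell cannot be told apart.

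All of the Igf1 RNA came from 5 of the 8 annotated transcripts, the other 3 being listed at 0. Igf1-202, a class 1 transcript without the 52-base exon, held 44.6%, 48.2% and 55.7% of the gene's TPM in fed and 56.0%, 50.8% and 42.1% in fasted libraries. Igf1-203, which carries the exon, held 26.3%, 18.4% and 27.0% against 14.6%, 27.4% and 27.8%. The class 2 transcript Igf1-205 held 27.2%, 31.3% and 10.7% against 24.8%, 21.1% and 26.7%. For each of these 3 transcripts the fed and fasted shares overlapped. Summed over transcripts, the class 1 leader accounted for 66.5% to 82.8% of the Igf1 TPM in the 6 libraries and the class 2 leader for 17.2% to 33.5%. The mean class 1 share was 73.4% ± 8.4 in fed and 72.9% ± 4.5 in fasted libraries (SD, n = 3 each). Exact two-sided permutation tests of the 3 shares gave p from 0.9 to 1 (adjusted p = 1 over the 7 transcripts of the members compared in this way), where 3 against 3 libraries cannot give less than 0.1. At such levels (1.12 TPM on average for Igf1-203 and 1.15 TPM for Igf1-205) the split between overlapping transcripts is an estimate, and its spread between libraries was wide. The annotated lengths differ as well, at 7052 bases for Igf1-202, 1673 for Igf1-203 and 798 for Igf1-205. TPM are scaled by these lengths, so the shares of leaders and of the exon depend on the annotated transcript ends.

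**Figure D1:**
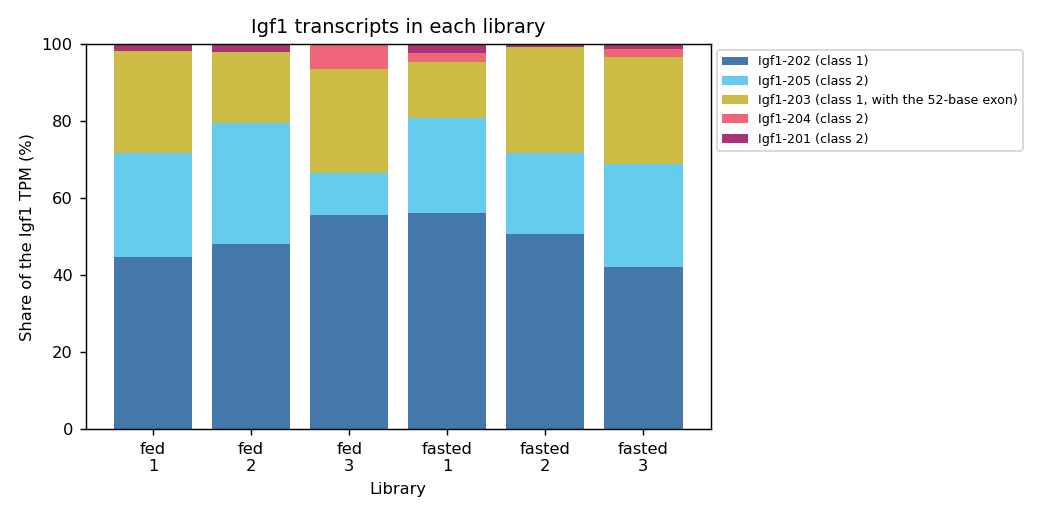
Share of the Igf1 TPM (vertical axis, %) held by each detected transcript in each library (horizontal axis), as stacked bars in 5 colours. Igf1-202 held between 42.1% and 56.0%, and the order of the other transcripts varied within both groups.

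Insr (ENSMUSG00000005534, chromosome 8, 3122061 to 3279617, minus strand) measured 7.05, 7.91 and 7.57 (fed) against 7.02, 7.50 and 7.40 TPM (fasted). The ranges overlapped, with the highest value again in fed replicate 2. Its log2 fold change was -0.03 (standard error 0.07) and a 95% interval from -0.20 to 0.13 (limma, adjusted p = 0.87). The full-length transcript Insr-201, whose sequence lacks the 36-base exon, held 97.3% to 99.6% of the Insr TPM. Insr-203, which has the exon, had 0.096 TPM in fed replicate 1 and 0.097 TPM in fed replicate 2 and was listed at 0 in the other 4 libraries, which include all fasted ones. Those levels are too low to read a difference between the diets. The table contains no full-length transcript with the exon, so these values do not give the share of the receptor's form B.

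Igf1r (ENSMUSG00000005533, chromosome 7, 67952827 to 68233668, plus strand), the IGF-1 receptor gene, measured 9.18, 8.98 and 9.23 (fed) against 9.24, 9.60 and 9.66 TPM (fasted). All fasted values lay above all fed ones, although fed replicate 3 and fasted replicate 1 were nearly equal. Of the 7 genes tested, Igf1r was the only one without overlap between the groups, while 17.8% of all 15097 tested genes showed none (12.7% higher and 5.07% lower in fasted libraries). The log2 fold change was 0.05 (standard error 0.06) and an interval from -0.09 to 0.19 (limma, adjusted p = 0.74), and it was 0.02 under median-of-ratios scaling. Within each library Igf1r exceeded Insr, by 1.30, 1.14 and 1.22 times in fed and by 1.32, 1.28 and 1.30 times in fasted libraries. The third gene of this receptor family, Insrr, which encodes the orphan insulin receptor-related receptor, made up 6.27% to 9.08% of their summed TPM.

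Igf2r (ENSMUSG00000023830, chromosome 17, 12682406 to 12769664, minus strand) measured 6.92, 7.14 and 6.53 (fed) against 7.36, 6.90 and 7.95 TPM (fasted). The groups overlapped, and the log2 fold change was 0.09 (standard error 0.08) and an interval from -0.09 to 0.28 (limma, adjusted p = 0.65). It ran from 0.05 without fasted replicate 3 to 0.14 without fasted replicate 2. The non-coding gene Airn, which controls imprinting at this locus, overlaps Igf2r on the other strand and averaged 8.23 TPM. The library kit keeps strand, but the sources used here do not say if the quantification used it, so Igf2r is uncertain to that extent.

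The adaptor genes differed far more from each other than between the diets. Irs2 (ENSMUSG00000038894, chromosome 8, 10984681 to 11008458, minus strand), an adaptor whose transcription in liver rises with fasting, measured 25.1, 24.2 and 23.4 (fed) against 23.1, 22.5 and 24.1 TPM (fasted). The groups overlapped. Its log2 fold change was -0.06 (standard error 0.05) (limma, adjusted p = 0.67). The 95% interval from -0.18 to 0.06 corresponds to 0.885-fold to 1.04-fold of TPM + 1, so a larger rise on that scale lies outside the interval.

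Irs1 (ENSMUSG00000055980, chromosome 1, 82233101 to 82291416, minus strand) measured 2.03, 3.12 and 2.37 (fed) against 2.16, 2.21 and 2.59 TPM (fasted). Fed replicate 2, with the muscle RNA, was the highest of the 6. The log2 fold change was -0.07 (standard error 0.14) and an interval from -0.40 to 0.26 (limma, adjusted p = 0.87), and it was 0.05 without fed replicate 2. Muscle uses IRS-1 as a main adaptor, and the part of the muscle RNA in this value was not tested beyond leaving that library out. Irs4 (ENSMUSG00000054667, chromosome X, 141710998 to 141725263, minus strand), known from hypothalamus, had 0.00605 TPM in fasted replicate 3 and was listed at 0 in the other 5 libraries, and was not tested. Irs3, which is not among the 8 genes, completes the adaptor family at 2.37 TPM on average. Irs2 held 80.9% to 85.7% of the summed TPM of the 4 adaptor genes in every library, and the ratio of Irs2 to Irs1 ran from 7.76 to 12.4.

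The promoters of the 3 IRS genes are shown because they share a pair of motifs close to the RefSeq start site while their transcripts ranged from nearly none to 23.7 TPM. In the insulin-responsive tissues studied, E-box factors and FoxO factors act on the Irs2 promoter. Windows of 300 bases (250 before and 50 after the RefSeq start site, GRCm38.p6) were searched on both strands for the E-box CACGTG and for TGTTTTG, the core of an insulin response element. Windows were found for 7 of the 8 genes. The Irs2 window, chr8:11008880-11009179, lies wholly upstream of the 5′ end of the quantified Irs2 transcript (chr8:11008458). Its motif pair is therefore farther from that end than from the RefSeq start site. The lines give 60 bases upstream of the start site, on the gene's strand and 5′ to 3′, with both motifs in capitals. They lie at chr1:82291519-82291578 for Irs1, chr8:11008938-11008997 for Irs2 and chrX:141725336-141725395 for Irs4.
Irs1: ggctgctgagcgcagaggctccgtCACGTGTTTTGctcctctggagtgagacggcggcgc
Irs2: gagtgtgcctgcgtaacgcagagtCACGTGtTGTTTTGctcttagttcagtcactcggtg
Irs4: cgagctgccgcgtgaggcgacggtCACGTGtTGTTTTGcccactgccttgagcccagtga

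In Irs2 and Irs4 a single base separates the motifs, and in Irs1 they overlap by sharing TG. CACGTG was found in 7.15% and TGTTTTG in 6.28% of all 32851 promoter windows. Both, overlapping or at most 10 bases apart, stood in 18 windows (0.0548%) of 15 genes, 3 of them the IRS genes. This search was made after the sequences had been read, so it is a description of these windows and has no test. The exact sequence TGTTTAC, a FoxO site, stood in none of the IRS windows, in 1 Akt1 window and in 3.65% of all windows. Its absence does not show that the IRS windows lack sites for FoxO factors. The Igf2r window held CACGTG at 2 places and no TGTTTTG, and the windows of Igf1, Igf1r and Akt1 held neither. The only Igf1 window, chr10:87860861-87861160, lies between the coding parts of the class 1 and class 2 leaders. The region ahead of the class 1 leader, which made up most of the Igf1 TPM, was therefore not searched.

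Akt1 (ENSMUSG00000001729, chromosome 12, 112653821 to 112674884, minus strand), the kinase gene at the end of this chain, measured 186, 182 and 179 (fed) against 180.0, 178 and 174 TPM (fasted). The groups overlapped by a narrow margin, with the lowest fed value below the highest fasted one. Its interval was the narrowest of the 7, from -0.12 to 0.04 or 0.921-fold to 1.03-fold of TPM + 1. The log2 fold change was -0.04 (standard error 0.03, limma, adjusted p = 0.66). This value moved with the scaling: it was -0.07 under median-of-ratios scaling (limma, unadjusted p = 0.073), -0.07 rescaled without mitochondrial genes (unadjusted p = 0.048, adjusted p = 0.58) and -0.09 after quantile normalization (unadjusted p = 0.027, adjusted p = 0.53). The full-length transcript Akt1-201 held 93.4% to 97.3% of the gene's TPM, and 7 further detected transcripts shared the rest.

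**Figure D2:**
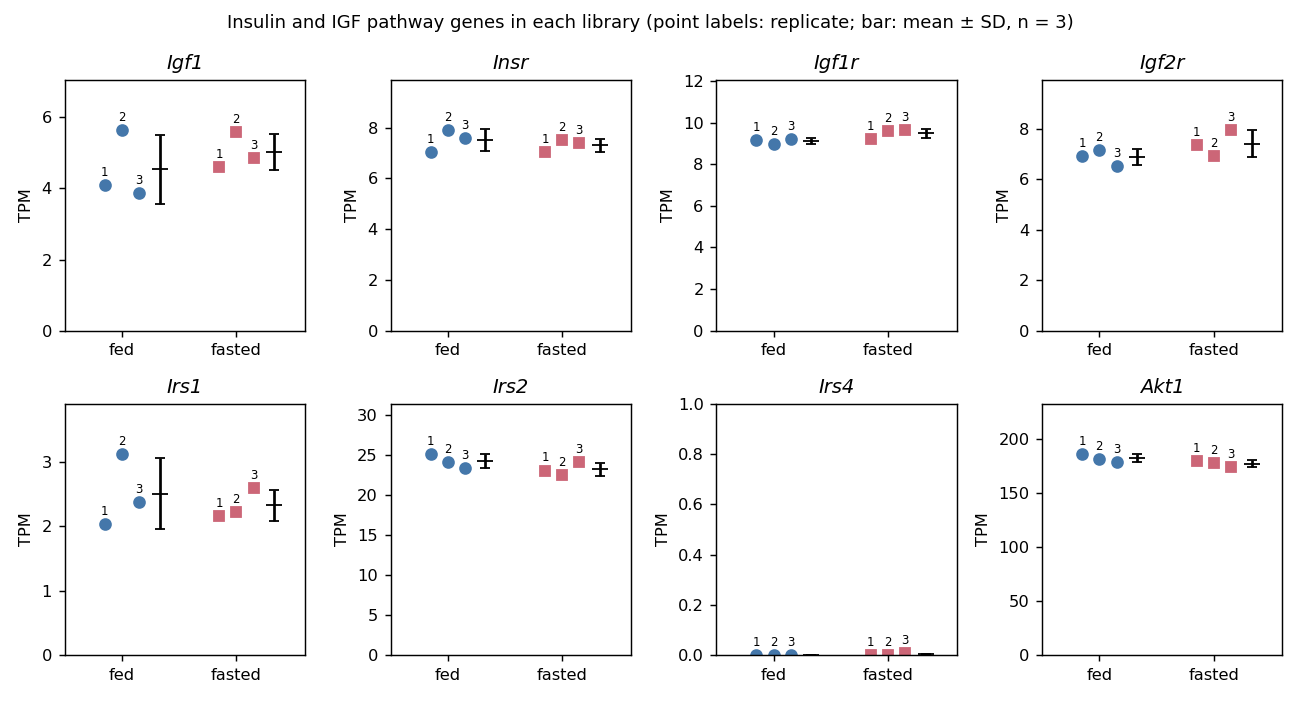
TPM (vertical axis, from 0, with a scale of its own in each panel) of the 8 genes in the 3 fed (blue circles) and 3 fasted (red squares) libraries, with replicate numbers beside the points and the mean ± SD as a black bar. The groups overlap for the tested genes other than Igf1r, where 8.98 to 9.23 TPM in fed stands against 9.24 to 9.66 TPM in fasted libraries, and Irs4 lies at or near 0.

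**Figure D3:**
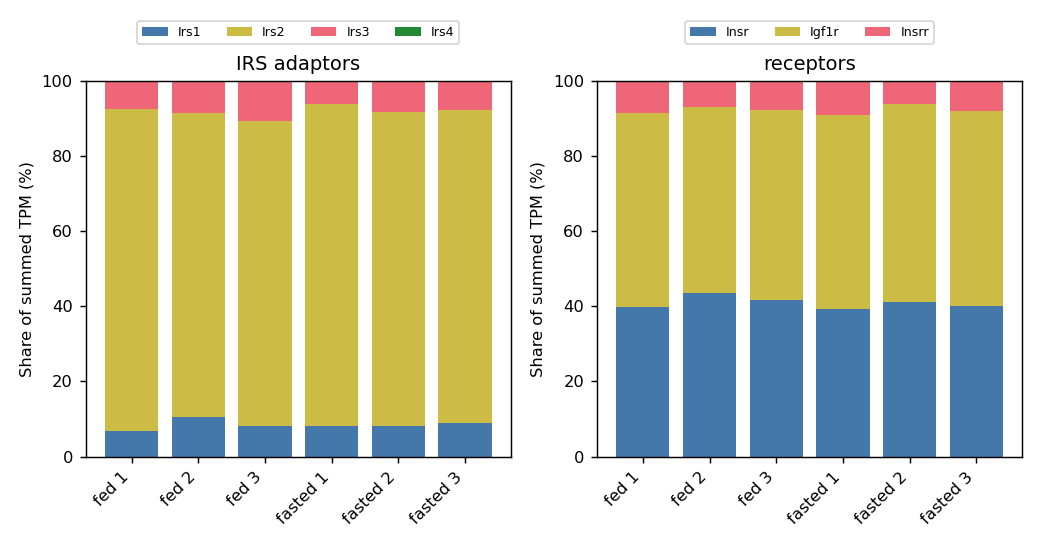
Share of the summed TPM (vertical axis, %) held by each IRS adaptor and receptor gene in each library (horizontal axis), as stacked bars. Irs2 held 80.9% to 85.7% of the adaptors in the 6 libraries, and the smaller shares varied more for their size. Irs1 held 6.92% to 10.4% and Irs3 6.30% to 10.8% of the adaptors, and Insrr 6.27% to 9.08% of the receptors.

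Read as a group, 3 of the 7 tested genes were higher and 4 lower after fasting. Their median log2 fold change was -0.03, and that of all tested genes 0.03. Under median-of-ratios scaling Insr was at -0.06, Igf2r at 0.07, Irs1 at -0.09, Irs2 at -0.09 and Igf1 at 0.10, and the median of all genes was 0.0019. No member passed the adjusted threshold of 0.05, which 0.00662% of all tested genes passed (1 of 15097), and none had an unadjusted p under 0.05 in limma on TPM as deposited, against 9.94% of all tested genes. Their median absolute log2 fold change was 0.06, and that of all tested genes was 0.07. At the transcript level, 11 transcripts of the members reached a mean of 1 TPM, and 0 passed (limma, adjusted p from 0.80 for Igf2r-201 to 0.97 for Insr-201). None of the 11 had an unadjusted p under 0.05, against 7.21% of the 33197 transcripts tested, of which 0.0271% passed the adjusted threshold.

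The rest of the pathway, 63 genes in 8 roles, was read from the same fit. Of these, 58 reached a mean of 1 TPM and were tested, 33 were higher after fasting and 25 lower, and 0 passed the adjusted threshold in either direction (limma). The share higher was 56.9%, against 62.5% of all tested genes, and over all genes it was 50.9% under median-of-ratios scaling, so the directions by role below are to be read against that background. With an unadjusted p under 0.05 there were 3 higher and 2 lower genes, 8.62% of the 58 against 9.94% of all tested genes (6.72% higher, 3.22% lower). This split follows the scaling: median-of-ratios scaling gave 1 higher and 3 lower, and with it all genes divided into 567 higher and 733 lower in place of 1015 and 486. The pathway count came to 6 (10.3%) without fed replicate 2, to 13 (22.4%) without fed replicate 3, to 9 (15.5%) without fed replicate 1 and to 2 (3.45%) without fasted replicate 3. The shares of all tested genes under the same omissions were 7.13%, 11.9%, 11.2% and 6.56%. Groups did not overlap for 9 of the 58 (15.5%), against 17.8% of all tested genes.

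Among the ligands, Ins1 and Ins2, the insulin genes, were listed at 0 in all libraries. Igf2 was the abundant ligand transcript, at 39.0, 53.3 and 39.6 (fed) against 42.7, 38.6 and 28.7 TPM (fasted). Its TPM ranges overlapped (-0.26 ± 0.17 on the log2 scale, fold change and standard error, adjusted p = 0.57 in limma). Igf2 stood at 9.51, 9.44 and 10.2 times the level of Igf1 in fed and at 9.29, 6.91 and 5.90 times in fasted libraries. These ratios did not overlap, by a narrow margin, and were not tested. The log2 fold change of Igf2 was -0.12 without fed replicate 2 and -0.10 without fasted replicate 3.

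Of the 9 adaptor genes listed beside the members, Shc1 had the smallest p. Shc1 links activated receptors to the Ras pathway and measured 136, 137 and 116 (fed) against 102, 112 and 96.6 TPM (fasted). Every fasted value lay below every fed one. Its log2 fold change was -0.32 (standard error 0.08) (limma, unadjusted p = 0.0044, adjusted p = 0.42), from -0.40 to -0.27 with 1 library left out. Endothelial and macrophage markers were lower in the same libraries (given above), and their part in this difference was not tested. Irs3 (2.66 ± 0.45 against 2.08 ± 0.34 TPM) came next, and Grb2, the most abundant adaptor, which couples receptors to Sos exchange factors, was at 135 ± 12.5 against 143 ± 7.52 TPM (SD, n = 3 each).

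Of the 6 phosphoinositide 3-kinase genes, 3 were higher and 3 lower, from -0.04 to 0.12 on the log2 scale. Pik3ca, which codes for a catalytic subunit, was at 37.9 ± 0.26 against 41.3 ± 1.62 TPM, with a log2 fold change of 0.12 (limma, unadjusted p = 0.027, adjusted p = 0.48). Under median-of-ratios scaling it was 0.09 (limma, unadjusted p = 0.060). The regulatory subunit genes Pik3r3 (29.8 ± 1.18 against 32.0 ± 0.49 TPM) and Pik3r1 (77.2 ± 4.14 against 82.2 ± 4.70 TPM) followed. Of the 8 downstream kinase genes 6 were higher, and Gsk3b (97.7 ± 3.58 against 105.8 ± 5.19 TPM) had the smallest p. Gsk3a, a kinase that Akt inhibits, was the most abundant of these at 120.4 ± 6.63 against 119.5 ± 0.55 TPM (SD, n = 3 each).

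Inhibitors of the pathway divided into 9 higher and 5 lower. Pik3ip1, a transmembrane inhibitor of phosphoinositide 3-kinase, measured 74.5, 65.4 and 72.3 (fed) against 76.4, 79.5 and 79.5 TPM (fasted). Its groups did not overlap, and the log2 fold change was 0.15 (limma, unadjusted p = 0.026, adjusted p = 0.48) or 0.10 without fed replicate 2. Grb10, an adaptor that binds insulin and IGF-1 receptors and dampens their signal, measured 15.2, 15.3 and 14.8 (fed) against 16.6, 16.0 and 17.0 TPM (fasted). These groups did not overlap either (log2 fold change 0.12, limma, unadjusted p = 0.042, adjusted p = 0.50). Under median-of-ratios scaling Grb10 was at 0.09 (limma, unadjusted p = 0.099) and Pik3ip1 at 0.12 (limma, unadjusted p = 0.037). Ptprf, a receptor tyrosine phosphatase, was the most abundant inhibitor at 149.9 ± 9.10 against 158 ± 2.59 TPM (SD, n = 3 each).

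Genes listed under IGF binding and release had a median of -0.24, with 6 of 9 tested genes lower and 0 passing the adjusted threshold (limma). They include Igf2bp2, named outside the rule, which codes for an mRNA-binding protein and not for a carrier of IGFs. Without it 5 of 8 were lower and the median was -0.17. Igfbp7, a binding protein found in vessels, measured 131, 159.5 and 122 (fed) against 109, 118 and 111 TPM (fasted), without overlap. Its log2 fold change was -0.28 (limma, unadjusted p = 0.020, adjusted p = 0.48). Without fed replicate 2 it was -0.17 (limma, unadjusted p = 0.016, adjusted p = 0.65). Igfbp5, a matrix-bound IGF carrier, measured 46.0, 66.6 and 42.4 (fed) against 39.4, 40.6 and 39.4 TPM (fasted), also without overlap. Its log2 fold change was -0.34 with all libraries (limma, unadjusted p = 0.054, adjusted p = 0.51). Without fed replicate 2 it was -0.15 (limma, unadjusted p = 0.024, adjusted p = 0.67). Both were highest in that library, which also had the highest endothelial sum (88.7 TPM) and the muscle RNA, and the part of these cells in the difference was not tested.

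Among the targets of Akt, 7 of 10 were higher and 3 lower. The transcription factor genes Foxo3 (31.2 ± 2.30 against 34.3 ± 0.80 TPM) and Foxo4 (12.6 ± 1.58 against 11.2 ± 0.97 TPM) had the smallest p, and Akt1s1, which codes for an mTORC1 inhibitor, was the most abundant at 80.9 ± 2.04 against 78.9 ± 2.31 TPM (SD, n = 3 each). Slc2a4, the gene of the insulin-responsive glucose transporter of muscle and fat, was named after its values were seen. It measured 2.27, 9.11 and 1.48 (fed) against 0.745, 2.89 and 2.12 TPM (fasted). The 9.11 TPM is from fed replicate 2, and without that library the log2 fold change moved from -0.65 to -0.04 (limma, adjusted p = 0.65 and 0.98).

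**Figure D4:**
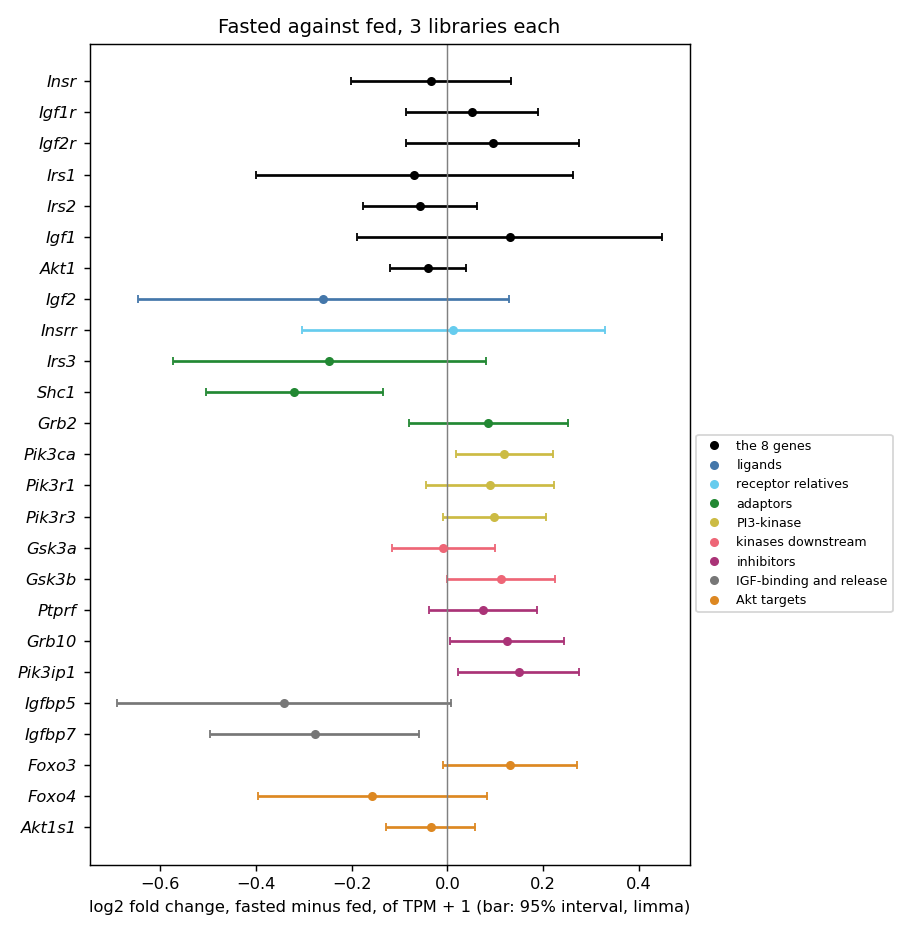
Log2 fold change, fasted minus fed, of TPM + 1 (horizontal axis; points with 95% intervals from limma, 3 libraries per group) for the 7 tested members in black and for the pathway genes described above, coloured by role. The intervals of the 7 members all include 0. Before adjustment and on TPM as deposited, Shc1 and Igfbp7 lie below 0 and Pik3ca, Grb10 and Pik3ip1 above it. Slc2a4 and Igf2bp2, which were named outside the rule, are not plotted.

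On log2(TPM + 1), Igf1 had the widest range of the tested members over the 6 libraries (0.45, against 0.44 for Irs1), while Irs1 was wider as a plain ratio of highest to lowest TPM. By the root mean square difference of log2(TPM + 1), centred on each gene's mean over the 6 libraries, the named genes with the most similar profile were Exoc3l4 (0.038), Urb1 (0.062) and Frmd5 (0.064). Exoc3l4 measured 1.26, 2.07 and 1.12 (fed) against 1.46, 2.02 and 1.74 TPM (fasted), high in replicate 2 of both groups like Igf1.

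**Figure D5:**
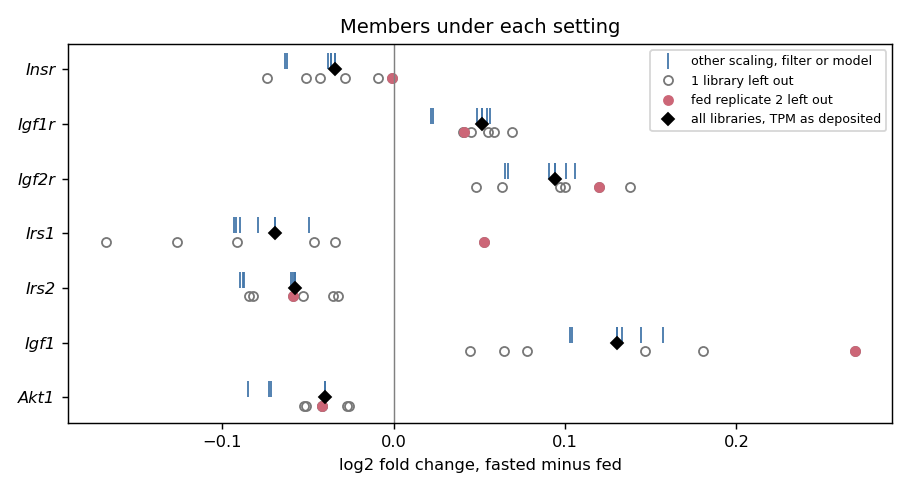
Log2 fold change, fasted minus fed (horizontal axis), of the 7 tested members with all libraries on TPM (black diamonds), under other scalings, filters and models (blue ticks), and with 1 library left out (open circles; red where fed replicate 2 was left out). Irs1 changes side without fed replicate 2, from -0.07 to 0.05, and Igf1 moves from 0.13 to 0.27.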

How the data were processed

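The authors deposited TPM for 140992 transcripts in 6 libraries, and every library sums to 1000000. The tools named, per the submitters' processing notes and without their roles, are Salmon 1.6.0, DESeq2 1.34.0, Trim Galore 0.6.6 and FastQC 0.11.9, with the builds GRCm38 and mm10. TPM are shares, so a rise of some transcripts lowers the others, and depth is lost; no count test was run. TPM were summed per gene symbol, and the 15097 genes averaging 1 TPM or more were analysed as log2(TPM + 1), a scale that understates changes of low genes. The diets were compared by limma 3.58.1 under R 4.3.3 (intensity trend, two-sided, Benjamini-Hochberg over all genes tested, threshold 0.05), and transcripts likewise. The fit was tested on simulated data. Isoform shares were compared by exact permutation. Transcript structures and coordinates came from GENCODE M21 (GRCm38), which holds 98.7% of the deposited transcript versions, and promoters from RefSeq (GRCm38.p6). Plots used matplotlib 3.10.9 (Python 3.11.15).

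The members, the pathway list and the marker lists were chosen with earlier results of these data known. Pathway genes were named by rule: the 2 with the smallest p and the most abundant in each role; 1 of them is not reported here. Alternatives were pseudocounts of 0.1 and 0.5, filters removed or raised to 5 TPM, median-of-ratios and quantile scaling, rescaling without mitochondrial genes, no intensity trend, a replicate block and leaving out each library; for transcripts, a pseudocount of 0.1, no filter, the block and leaving out each library; for the isoform shares, counting only transcripts of at least 1 TPM in the denominator and leaving out each library. The refits of pathway genes outside the 8, the family shares and the promoter search were added after seeing the data.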

Additional observations from a re-analysis of the deposited data

How the results depend on the processing

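In 103 refits of the 7 tested members under 15 alternatives, 102 kept their direction and 0 passed the adjusted threshold (limma, smallest adjusted p = 0.53). The exception in direction was Irs1 without fed replicate 2 (0.053, adjusted p = 0.94). With 1 library left out, the log2 fold changes ran from -0.07 to -0.00091 for Insr, 0.04 to 0.07 for Igf1r, 0.05 to 0.14 for Igf2r, -0.17 to 0.053 for Irs1, -0.08 to -0.03 for Irs2, 0.04 to 0.27 for Igf1 and -0.05 to -0.03 for Akt1. Over all genes, 1 gene passed; with a pseudocount of 0.1 or 0.5 there were 2, without a filter (29760 genes tested) 0 (1281 higher and 802 lower at an unadjusted p under 0.05, limma), and with 1 library left out 1 to 6. Over all transcripts 9 passed, 0 with the replicate block and 4 to 15 with 1 library left out; the cause was not tested. Other genes that changed direction were flat: Gsk3a (-0.01) ran from -0.053 to 0.025 and Insrr (0.01) from -0.051 to 0.095 with 1 library left out, and Insrr was at -0.0061 under median-of-ratios scaling and -0.0068 without mitochondrial genes. The difference in isoform share, fasted minus fed in percentage points, changed sign for 5 of 7 transcripts, all but Insr-201 and Igf1r-201. With 1 library left out it ran from -0.31 to 1.66 for Akt1-201, -3.08 to 3.88 for Igf1-202, -3.41 to 3.67 for Igf1-203, -5.08 to 5.25 for Igf1-205 and -0.32 to 0.35 for Igf2r-201. With transcripts of at least 1 TPM alone, Igf1-202 differed by -0.29 points in place of 0.13.

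Replicate numbers are shared by the groups, but no label ties them to a litter or day. Deviations of same-numbered libraries from their group means correlated across genes at 0.093, 0.11 and 0.066, and each library correlated best with its own number, a hint from the data and not from the design. With the replicate block the members' log2 fold changes were unchanged, with adjusted p from 0.60 (Igf1) to 0.86, and 1 gene passed. Of the other 58 pathway genes tested, 8 (13.8%) had an unadjusted p under 0.05 with the block and 5 (8.62%) without it, against 11.4% and 9.94% of all genes. The unknown depth limits every value of a few TPM, such as those of Irs1, Igf1 and their transcripts.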
